A study of Danio rerio with 9 samples.

Results

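The zebrafish (Danio rerio) intestine libraries were searched for the genes of lysosomal digestion: the cathepsins, which cut proteins inside lysosomes, and the vacuolar proton pump, which acidifies them. Members were the rows whose gene name starts with cts followed by a, b, c, d, f, h, k, l, o, s or z, or with atp6v or atp6ap. The pattern found 43 of 26983 genes, of which 17 are cathepsins and 26 are pump genes (12 of the V1 sector, 9 of the V0 sector and 5 accessory). It does not take in tcirg1a and tcirg1b, which encode further forms of the pump's a subunit.

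RNA of intestine was sequenced in 9 libraries, 3 in each of the groups FM, SBM and D3. The series title speaks of β,β-dimethylacryloyl shikonin and of gut inflammation from soybean meal. What the 3 codes stand for is left unsaid in the labels, as are strain, dose, time, diet, age and sex. Nothing states that replicates came from separate fish, and p-values then cover only the spread between these libraries, which may be technical. Total counts ran from 34436497 to 36203230 per library. The comparisons asked how SBM differed from FM and how D3 differed from each of them; D3 against FM and SBM against FM share the FM libraries, and D3 against SBM shares libraries with both.

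The vacuolar proton pump is a rotary enzyme. Its V1 sector hydrolyses ATP on the cytosolic face, and its V0 sector carries protons through the membrane on a ring of c subunits. The acid it makes activates most cathepsins: the cysteine cathepsins B, C, F, H, K, L, O, S and Z, the aspartic cathepsin D and the serine carboxypeptidase cathepsin A. In fish, lysosome-rich enterocytes of the hind intestine take up whole dietary protein and break it down in very large lysosomes.

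Some libraries stood apart. Ovary and oocyte markers summed to 3640 CPM (counts scaled to a common library total with TMM, edgeR's correction for composition) for SBM library 1 and 3850 for D3 library 3, while the other 7 had 46.6 to 504. Those 2 libraries correlated with each other across all tested genes at a Spearman rho of 0.975, above the 0.869 and 0.92 of SBM library 1 with the other SBM libraries. Hepatocyte markers summed to 46167 CPM for SBM library 2, 23679 for D3 library 1 and 59337 for D3 library 2, while the remaining 6 had 1932 to 7921. These sums are not an even scale of hepatocyte RNA. Gene apobb.1 alone was at 1517 to 5000 CPM in the 6 libraries, and vtg1 at 26957 in D3 library 2. The marker fabp10a was at 1757 to 3915 CPM in the 3 high libraries and at 32.1 to 297 in the 6. Enterocyte genes were abundant in all 9, with the fatty acid carrier gene fabp2 at 1317 to 5478 CPM. The sum of 10 absorptive enterocyte markers was lower in each SBM library (10146 to 24440 CPM) and each D3 library (11285 to 21325) than in any FM library (25840 to 34753). Some of the results that rest on the marked libraries are also given without them.

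Cathepsin transcripts took 1.01 to 2.85% of all counts in a library, and pump and accessory transcripts 0.172 to 0.349%. Levels are compared between genes on the deposited FPKM scale, which divides by gene length. The cathepsin L gene ctsl.1, an endopeptidase, led by a wide margin, with a mean of 6681 FPKM over the 9 libraries and 55.8 to 68.7% of the summed cathepsin FPKM. The carboxypeptidase gene ctsz followed at 1279 FPKM, the aminopeptidase gene ctsh at 711, the cathepsin B gene ctsbb at 662 and the carboxypeptidase gene ctsa at 359. Below them came ctsd at 252 FPKM, the dipeptidyl peptidase gene ctsc at 213 and the second cathepsin B gene ctsba at 209. The FPKM means of ctss2.1, ctsk, ctss2.2 and ctsla lay between 78.2 and 105. The cysteine cathepsin genes ctsf and ctso stood at 17.0 and 9.32 FPKM, ctss1 and ctsll at 0.610 and 0.214, and ctslb at 0.0046 with 2 counts in all.

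Pump subunits were far below the leading cathepsins, and most were close to each other. With the paralogs of a subunit summed, and tcirg1a and tcirg1b counted under a, the V1 subunits ranged from a mean of 47.7 FPKM for H to 138 for G, a peripheral stalk subunit. The other stalk subunit, E, stood at 117, and A and B, which form the ring that hydrolyses ATP, at 72.1 and 74.2. The proteolipid c, which the pump holds in several copies, was the highest subunit at 305 FPKM. The V0 subunits a, d and e and the c-related subunit encoded by atp6v0b lay between 55.9 and 83.7 FPKM. Accessory proteins AP1, a luminal assembly factor, and AP2, the prorenin receptor, stood at 54.4 and 82.6.

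**Figure D1:**
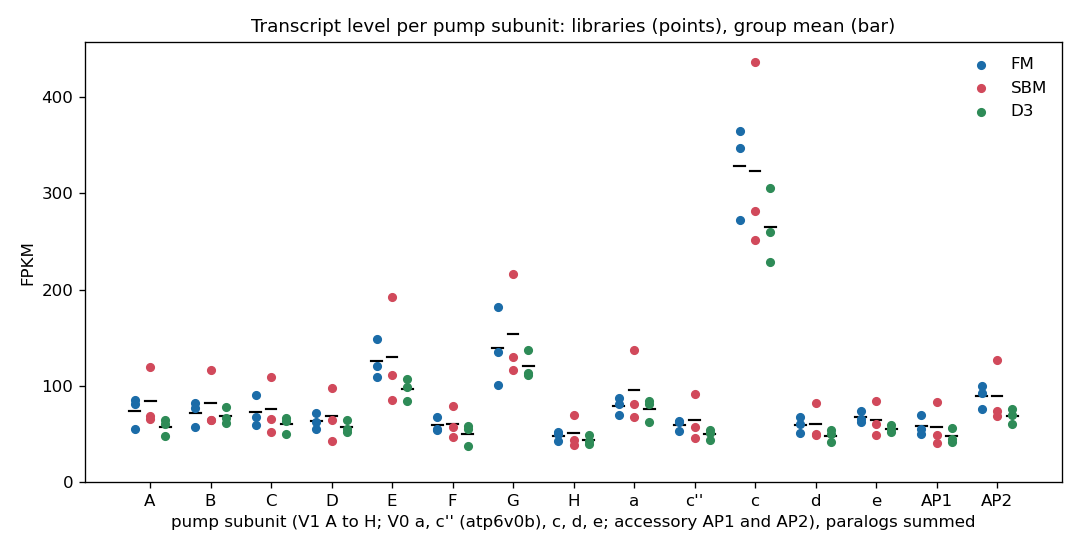
FPKM of each pump subunit (paralogs summed) in the 9 libraries, as points by group with the group mean as a bar. The c subunit lies at 229 to 437 FPKM, above every other subunit in each group, and SBM library 3 is the highest point for all 15 subunits. FPKM is divided by raw totals and not TMM-scaled. On TMM-scaled CPM, SBM library 3 was the highest of the 9 for 6 of 23 pump and accessory genes, and FM library 1 for 11.

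Most subunits were carried by 1 gene. Of the FPKM of subunit B, atp6v1ba held 97.8 to 99.4% and atp6v1b2 the rest. Of c, atp6v0ca held 98.2 to 99.1%, and of AP1, atp6ap1b held 97.6 to 99.6%. Subunit A was shared between atp6v1aa (51.1 to 65.4%) and atp6v1ab (34.6 to 48.9%). Subunit a was split mainly between atp6v0a1a at 39.5 to 49.96% and tcirg1b at 41.0 to 48.9%, with atp6v0a2b at 6.603 to 13.2%. How the counting treated reads that match 2 paralogs is not given in the sources used here, so these splits are uncertain where copies are alike.

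Subunit C, which clamps V1 to V0, was divided between atp6v1c1a and atp6v1c1b. The atp6v1c1b share was 65.8, 57.3 and 61.2% for the FM libraries, 54.7, 59.9 and 64.0% for those of SBM and 45.6, 50.4 and 57.4% for those of D3. D3 library 3 thus reached just into the FM range, and the other D3 libraries lay below all FM and SBM libraries.

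**Figure D2:**
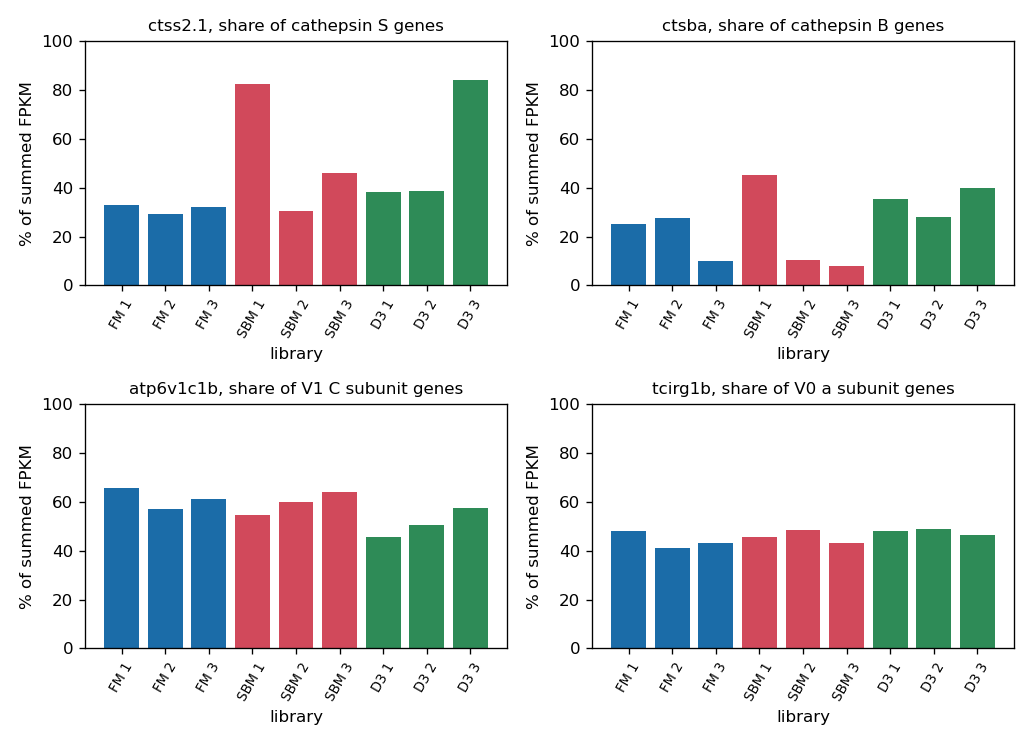
Share of 1 paralog in the summed FPKM of its gene family, in percent, for each library (bars, coloured by group). The ctss2.1 share stands at 82.5% in SBM library 1 and 84.3% in D3 library 3 and at 29.1 to 45.9% in the others, while the tcirg1b share stays between 41.0 and 48.9%.

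Of the 43 members, 39 passed the filter on low counts and were tested, 16 cathepsins and 23 pump or accessory genes. The 4 left out were ctslb and atp6ap1la with 2 counts each over the 9 libraries, atp6v1c2 with 17 and atp6v0a2a with 62. None of the 39 passed edgeR's quasi-likelihood test at an adjusted p under 0.05 in any comparison, where the background was 0% of all 19450 genes in each direction. DESeq2 and limma-voom called 0 of the 39 as well. The limma-voom background was 0% of all genes in each comparison and direction. DESeq2's background was 1.04% of all genes higher and 0.18% lower for SBM against FM. It was 0.0103% higher and 0.0154% lower for D3 against SBM, and 3.18% higher and 1.54% lower for D3 against FM. In SBM against FM, DESeq2 gave no adjusted p for atp6ap1a, atp6ap1lb, atp6v0a1b, atp6v1b2, ctsll and ctss1, so these could not be called there.

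**Figure D3:**
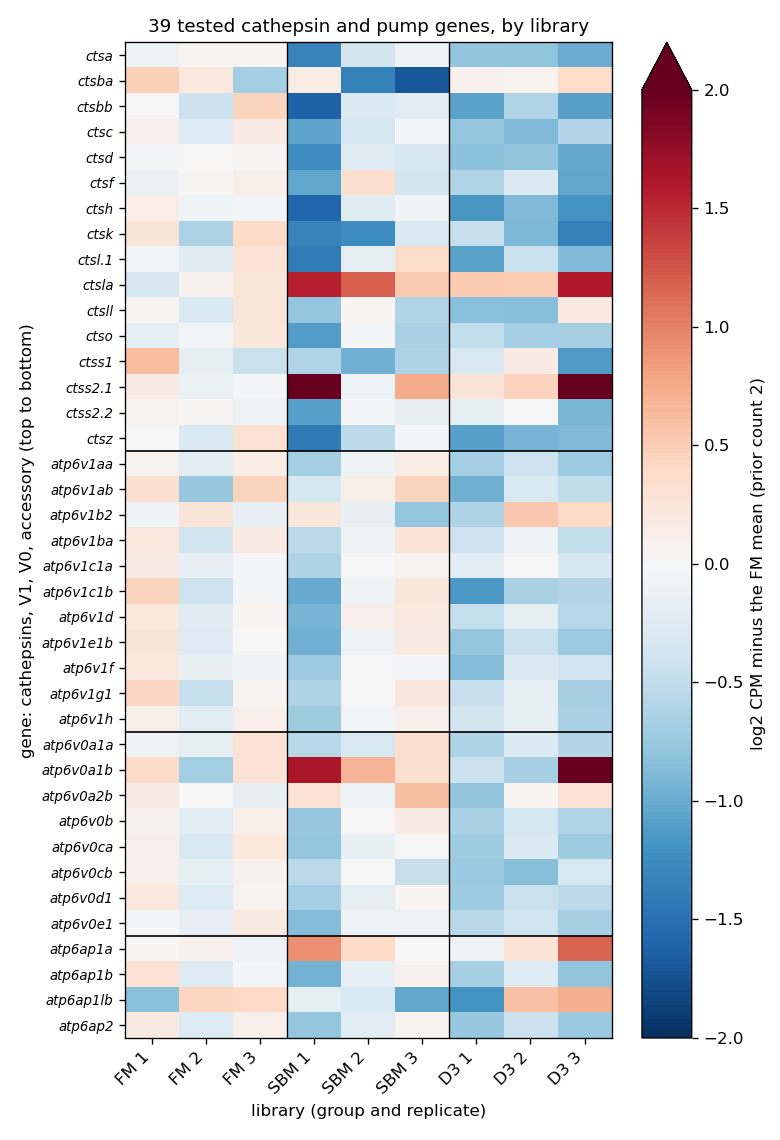
Log2 CPM (prior count 2) of the 39 tested members in each library minus the mean of the 3 FM libraries, with rows by sector and columns by group. Blue cells fill most of the SBM library 1 and D3 columns, while ctsla is red in all SBM and D3 columns and ctss2.1 and atp6v0a1b are dark red in SBM library 1 and D3 library 3; the colour scale ends at 2 and 2 cells of ctss2.1 and 1 of atp6v0a1b reach or exceed it.

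Values in D3 against FM were lower for 13 of 16 cathepsins and 19 of 23 pump and accessory genes, with median log2 fold changes of −0.69 and −0.51 against 0.04 over all genes tested; 47.6% of all genes had a lower value. For 20 of the 39 every D3 library lay below every FM library, 9 cathepsins and 11 pump genes, against a background of 13.6% of all genes. An unadjusted p under 0.05 with a lower value was reached by 13, 7 cathepsins and 6 pump genes (background 7.14%), and with a higher value by ctsla alone (background 8.05%). In bulk tissue, fewer cells of a type and less RNA per cell cannot be told apart.

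The aspartic protease gene ctsd had the smallest p of the members in this comparison. It stood at 813, 838 and 856 CPM for the FM libraries, 353, 708 and 660.2 for those of SBM and 475, 484 and 411 for those of D3. All D3 libraries were low and close together, and the FM libraries lay between 813 and 856. Its log2 fold change, given here and below with its SE, was −0.87 ± 0.27 (edgeR unadjusted p = 0.012, adjusted p = 0.32).

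The aminopeptidase gene ctsh was at 1425, 1212 and 1252 CPM for the FM libraries, 429, 1097 and 1238 for those of SBM and 578, 705 and 564 for those of D3. Every D3 library lay below every FM library, and SBM library 1 was lower than all of them. The difference was −1.07 ± 0.37 on the log2 scale, with an edgeR adjusted p of 0.32, the same adjusted p as for ctsa, ctsz and ctsc.

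For ctsa, the carboxypeptidase that also stabilises lysosomal β-galactosidase and neuraminidase, the levels were 918, 1019 and 1017 CPM for the FM libraries, 391, 766 and 914 for those of SBM and 569, 561 and 493 for those of D3. D3 did not overlap with FM, nor did SBM, whose highest library at 914 was just under the lowest FM library at 918. The log2 fold change of D3 against FM was −0.86 ± 0.30.

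Values of ctsz, the cathepsin Z carboxypeptidase, were 2437, 1987 and 3019 CPM for the FM libraries, 914, 1695 and 2377 for those of SBM and 1157, 1278 and 1332 for those of D3. D3 libraries again lay below FM, at a log2 fold change of −0.98 ± 0.35. Cathepsin C, encoded by ctsc, activates serine proteases of immune cell granules by trimming their amino termini. Its gene was at 929.6, 718 and 967 CPM for the FM libraries, 417, 675 and 841 for those of SBM and 505, 466 and 575 for those of D3, and D3 and FM did not overlap (log2 fold change −0.76 ± 0.28).

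The most abundant member, ctsl.1, was at 11358, 9999 and 14407 CPM for the FM libraries, 4457, 10421 and 15276 for those of SBM and 5621, 8652 and 6386 for those of D3. D3 lay below FM, while SBM held both the lowest library and the highest of all 9. The log2 fold change was −0.79 ± 0.43 (edgeR unadjusted p = 0.10, adjusted p = 0.37). Cathepsin B gene ctsbb had 1951, 1448 and 2663 CPM for the FM libraries, 639.7, 1609 and 1687 for those of SBM and 932, 1288 and 921 for those of D3. Its D3 libraries lay under the FM libraries too, with a log2 fold change of −0.95 ± 0.40. The remaining cathepsins without overlap were ctso, at 18.1 to 24.0 CPM in FM and 12.7 to 14.5 in D3, and ctsf, at 56.6 to 67.5 in FM and 30.3 to 51.0 in D3.

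**Figure D4:**
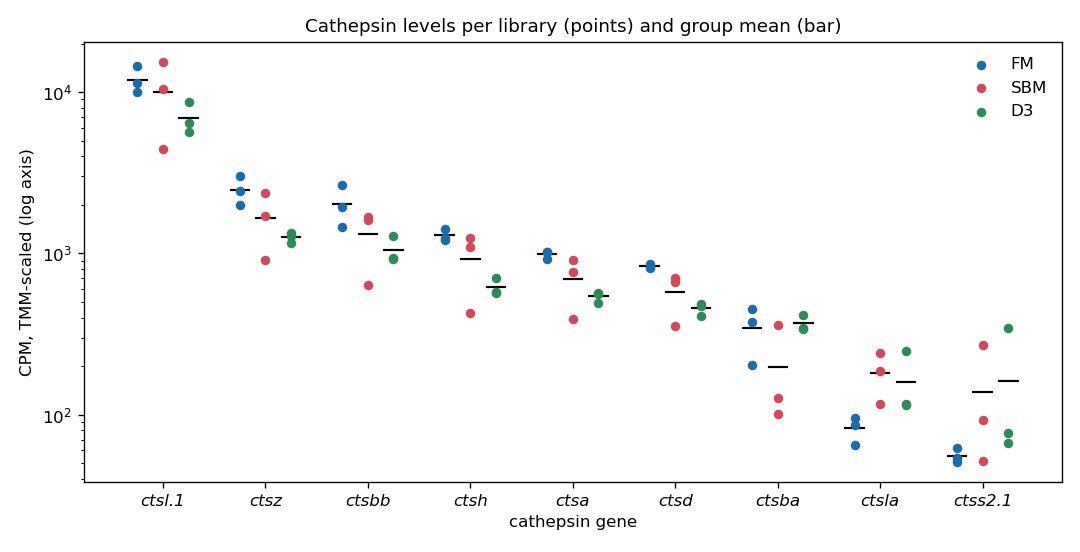
CPM of 9 cathepsin genes on a log axis, with each library as a point coloured by group and the group mean as a bar. D3 points lie below FM points for ctsl.1, ctsz, ctsbb, ctsh, ctsa and ctsd, above them for ctsla and ctss2.1, and among them for ctsba.

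Among pump genes, the accessory gene atp6ap2 had the smallest p in D3 against FM. It was at 188, 137 and 178 CPM for the FM libraries, 97.2, 144 and 175 for those of SBM and 98.0, 123 and 99.3 for those of D3. D3 and FM did not overlap, and SBM spanned both ranges. Its log2 fold change was −0.65 ± 0.26 (edgeR unadjusted p = 0.034, adjusted p = 0.32).

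In the V1 sector, atp6v1aa, 1 of the pair that encode the catalytic A subunit, was at 127, 103 and 134 CPM for the FM libraries, 75.1, 113 and 134 for those of SBM and 74.8, 90.3 and 72.5 for those of D3. No D3 library reached the FM range (log2 fold change −0.62 ± 0.25). The C subunit gene atp6v1c1b was at 130.0, 71.4 and 93.0 CPM for the FM libraries, 47.2, 89.6 and 111 for those of SBM and 43.0, 60.4 and 63.6 for those of D3. D3 and FM were again apart, and the log2 fold change of −0.82 ± 0.36 was the lowest of the V1 genes. Its paralog atp6v1c1a overlapped, at 50.7 to 64.5 CPM in FM and 44.9 to 56.6 in D3.

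Both peripheral stalk genes were well expressed: atp6v1e1b was at 213, 149 and 177 CPM for the FM libraries, 91.8, 166 and 201 for those of SBM and 104, 131 and 108 for those of D3. D3 lay below FM for this gene (log2 fold change −0.65 ± 0.30). The partner atp6v1g1 was at 203, 108 and 155 CPM for the FM libraries, 98.0, 150.5 and 176 for those of SBM and 109, 132 and 94.2 for those of D3. FM library 2 lay within the D3 range here, and the log2 fold change was −0.48 ± 0.31. The B subunit gene atp6v1ba overlapped as well, at 226, 149 and 219 CPM for the FM libraries, 134, 184 and 236 for those of SBM and 147, 184 and 139 for those of D3 (log2 fold change −0.34 ± 0.27).

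In the V0 sector, the d subunit gene atp6v0d1, which couples the c ring to the central stalk, was at 163, 117 and 148 CPM for the FM libraries, 88.5, 125 and 144 for those of SBM and 85.5, 103 and 98.5 for those of D3. D3 was below FM without overlap, at a log2 fold change of −0.57 ± 0.24. The small membrane subunit gene atp6v0e1 was at 60.2, 55.0 and 69.7 CPM for the FM libraries, 33.7, 57.3 and 56.5 for those of SBM and 41.6, 46.5 and 38.7 for those of D3, also without overlap (−0.54 ± 0.23). The c ring gene atp6v0ca was at 634, 476 and 684 CPM for the FM libraries, 347, 535 and 586 for those of SBM and 361, 482 and 361 for those of D3. D3 library 2 came above FM library 2, so these groups overlapped, with a log2 fold change of −0.58 ± 0.27. Its minor paralog atp6v0cb did not overlap, at 7.70 to 9.43 CPM in FM and 4.82 to 7.02 in D3 (−0.63 ± 0.25). With edgeR, the adjusted p of atp6v1e1b was 0.34, and those of the other pump genes named so far as not overlapping were lower, down to 0.32.

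The remaining pump genes were described by their ranges. In FM and D3, atp6v0a1a was at 133 to 186 CPM in FM and 99.5 to 124 in D3, atp6v0b at 114 to 142 CPM in FM and 83.9 to 103 in D3, atp6v1f at 59.7 to 76.7 CPM in FM and 36.1 to 53.9 in D3 and atp6ap1b at 127 to 185 CPM in FM and 87.7 to 127 in D3. None of these overlapped, atp6ap1b by a margin of 127.5 against 127.3 CPM. The rotor shaft gene atp6v1d (131 to 179 CPM in FM and 104 to 137 in D3), the H subunit gene atp6v1h (84.7 to 107 CPM in FM and 62.8 to 87.6 in D3) and the a subunit gene atp6v0a2b (23.8 to 30.1 CPM in FM and 15.4 to 32.6 in D3) overlapped. So did the low genes atp6v1b2 (2.04 to 2.75 CPM in FM and 1.47 to 3.34 in D3) and atp6ap1lb (0.231 to 0.634 CPM in FM and 0.166 to 0.791 in D3) and the low cathepsin gene ctsll (0.423 to 0.647 CPM in FM and 0.274 to 0.623 in D3).

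The count of 13 with a lower value and an unadjusted p under 0.05 depended on single libraries. It was 3 without FM library 1 (4.86% of all genes in the same fit), 2 without FM library 3 (4.17%) and 21 without SBM library 1 (8.6%). Without D3 library 1, 2 or 3 it was 3, 8 or 6, beside 6.86, 6.33 and 5.65% of all genes. With library size alone in place of TMM factors, the median of all genes was 0.30 in D3 against FM, the count was 2 (2.88% of all genes) and the number below every FM library was 11 instead of 20 (5.91% of all genes). Relative to the median of all genes, cathepsins were at −0.72 and pump genes at −0.53 under that scaling, and at −0.73 and −0.54 with TMM factors. Without the 2 libraries highest in oocyte genes, 21 members were below every FM library, and without the 3 highest in hepatocyte genes 29, where D3 is 1 library. Fewer libraries overlap less often, and in the same fits 18.2% and 42.5% of all genes were below every FM library. The medians of cathepsins, pump genes and all genes were −0.74, −0.49 and 0.01 in the first case and −0.99, −0.67 and −0.18 in the second.

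In SBM against FM, 14 of 16 cathepsins had lower values, with a median log2 fold change of −0.50 against −0.01 over all genes, of which 50.5% were lower. SBM and FM did not overlap for 3 with lower values, ctsd, ctsa and ctss1 (background 10.3%), and for ctsla with higher values (background 9.56%). At an unadjusted p under 0.05 stood ctsk with a lower value (background 3.41%) and ctsla with a higher one (background 5.53%). The median of the cathepsins was −0.27 without SBM library 1 and −0.23 without the 2 libraries highest in oocyte genes.

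The collagen-degrading cathepsin gene ctsk was at 249.7, 135 and 272 CPM for the FM libraries, 82.7, 88.2 and 171 for those of SBM and 151, 112 and 81.6 for those of D3. SBM and FM overlapped, since FM library 2 was under SBM library 3. Its log2 fold change was −0.94 ± 0.40 (edgeR unadjusted p = 0.044, adjusted p = 0.54). The corresponding value for ctsd was −0.54 ± 0.27, and for ctso −0.55 ± 0.28. The low cathepsin S gene ctss1 was at 2.57, 1.45 and 1.198 CPM in FM against 1.06, 0.816 and 1.05 among SBM libraries, with a log2 fold change of −0.83 ± 0.45.

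Pump and accessory genes in SBM against FM had a median of −0.19, with 19 of 23 lower, and none stood apart between the groups. SBM library 1 carried that direction: with this library left out the median came to 0.01 and 10 of 23 were lower, and without the 2 libraries highest in oocyte genes it was 0.05 with 8 of 23 lower. Library size scaling gave 0.08 with 5 of 23 lower, where the median of all genes was 0.26. Relative to the median of all genes, pump genes were at −0.18 both with TMM factors and under library size scaling. They were at 0.04 without SBM library 1, and likewise without the 2 libraries highest in oocyte genes. The genes with the smallest p were atp6v0e1 (−0.33 ± 0.23) and atp6v0cb (−0.33 ± 0.25), with edgeR adjusted p of 0.58 and 0.59. Log2 fold changes of atp6v0ca and atp6v0d1 were −0.29 ± 0.27 and −0.26 ± 0.23; that of atp6v0d1 turned to 0.02 with library size scaling.

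The SBM libraries differed widely from each other. SBM library 1 was the lowest of all 9 libraries for 10 of 16 cathepsins and 10 of 23 pump genes. SBM library 3 was the highest of its group for 16 of 23 pump genes and 7 of 16 cathepsins. The shares of all genes with these library orders are not given here. On the log2 scale relative to the FM mean, the medians in SBM library 1 were −1.10 for cathepsins, −0.67 for pump genes and −0.08 for all genes. In SBM library 3 they were −0.18, 0.10 and −0.02. Summed over the tested members, cathepsins were at 20867, 18081 and 25014 CPM for the FM libraries, at 8654, 17644 and 23649 for those of SBM and at 10684, 14269 and 11883 for those of D3. Pump and accessory genes summed to 2992, 2158 and 2877 CPM for the FM libraries, 1605, 2470 and 2900 for those of SBM and 1685, 2151 and 1722 for those of D3. For both sums SBM reached from below all D3 libraries into the FM range.

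D3 against SBM gave no member without overlap between the groups (background 2.56% lower and 2% higher), and none with an unadjusted p under 0.05 (background 1.32% lower and 0.746% higher). Lower values in D3 were held by 10 of 16 cathepsins and 20 of 23 pump genes, with medians of −0.25 and −0.29 against 0.03 over all genes, of which 45.3% were lower. Without SBM library 3 these medians were −0.09 and −0.15, without SBM library 2 −0.15 and −0.21, and without SBM library 1 −0.42 and −0.48. Without the 2 libraries highest in oocyte genes they were −0.51 and −0.52, against −0.03 over all genes. Without the 3 highest in hepatocyte genes, where D3 is 1 library, they were −0.41 and −0.40, against −0.04. The second A subunit gene atp6v1ab had the smallest p of the 39 here. Its levels were 111, 52.8 and 121 CPM for the FM libraries, 69.9, 96.5 and 121 for those of SBM and 45.9, 72.0 and 62.8 for those of D3, with a log2 fold change of −0.67 ± 0.35 (edgeR unadjusted p = 0.092, adjusted p = 1.00). Other pump genes with small p were atp6v1aa (−0.44 ± 0.25), atp6v1c1b (−0.57 ± 0.35), atp6v0b (−0.38 ± 0.26), atp6ap2 (−0.38 ± 0.26) and atp6v1e1b (−0.42 ± 0.30).

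The cathepsin with the smallest p in D3 against SBM was ctsba, with a higher value in D3. It was at 449, 377 and 202 CPM for the FM libraries, 362, 127 and 100.3 for those of SBM and 346, 341 and 417 for those of D3. The D3 libraries were high and close, the SBM libraries held 1 high and 2 low, and FM library 3 was also low. Its log2 fold change was 0.91 ± 0.50 (edgeR unadjusted p = 0.10, adjusted p = 1.00). Within the cathepsin B pair, ctsba held 25.3, 27.7 and 10.1% of the FPKM for the FM libraries, 45.4, 10.4 and 8.05% for those of SBM and 35.3, 28.1 and 39.97% for those of D3. The values for ctsh, ctsl.1, ctsz, ctsa and ctsd in D3 against SBM were −0.58 ± 0.36, −0.55 ± 0.43, −0.40 ± 0.34, −0.35 ± 0.30 and −0.33 ± 0.27.

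A few members ran against the rest. The cathepsin L paralog ctsla was at 64.8, 86.6 and 96.0 CPM for the FM libraries, 239.6, 186 and 116 for those of SBM and 117, 115 and 248 for those of D3. Each SBM and each D3 library lay above all FM libraries, and the highest were D3 library 3 and SBM library 1. Its log2 fold change was 1.13 ± 0.39 in SBM and 0.95 ± 0.38 in D3 against the same FM libraries (edgeR unadjusted p = 0.018 and 0.036, adjusted p = 0.54 and 0.33). Without the 2 libraries highest in oocyte genes these values were 0.90 and 0.49.

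Cathepsin S, encoded here by ctss1, ctss2.1 and ctss2.2, trims the invariant chain during antigen presentation in mammals. Gene ctss2.1 was at 62.5, 50.9 and 53.9 CPM for the FM libraries, 269, 51.4 and 93.0 for those of SBM and 66.3, 76.7 and 344 for those of D3. SBM library 1 and D3 library 3 were well above the other 7, D3 did not overlap with FM, and SBM library 2 lay within the FM range. The log2 fold change was 1.31 ± 0.75 in SBM and 1.54 ± 0.76 in D3 against FM (edgeR adjusted p = 0.55 and 0.35). Without the 2 libraries highest in oocyte genes they were 0.40 and 0.35. In the fit without the 3 libraries highest in hepatocyte genes, D3 library 3 was the lone D3 library. There the log2 fold change of ctss2.1 in D3 against FM was 2.55, and a spread within D3 could not be estimated.

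In the RefSeq annotation of assembly GRCz12tu, ctsk, ctss2.1 and ctss2.2 are neighbouring protein-coding genes. Gene ctss2.2 was at 131, 127 and 116 CPM for the FM libraries, 58.5, 121 and 113 for those of SBM and 109, 124 and 65.7 for those of D3. SBM library 1 and D3 library 3, the highest for ctss2.1, were the lowest pair for ctss2.2 and for ctsk.

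The same 2 libraries were the highest pair for 4 of the 39 members: ctsla, ctss2.1, the a subunit gene atp6v0a1b and the AP1 gene atp6ap1a. Gene atp6v0a1b was at 0.626, 0.272 and 0.583 CPM for the FM libraries, 1.57, 0.784 and 0.598 for those of SBM and 0.332, 0.274 and 2.23 for those of D3, and atp6ap1a at 0.890, 0.936 and 0.809 CPM for the FM libraries, 1.69, 1.18 and 0.885 for those of SBM and 0.831, 1.07 and 2.04 for those of D3. Both are minor paralogs, and in SBM against FM their log2 fold changes were 1.00 ± 0.85 and 0.51 ± 0.43, and 0.50 and 0.25 without the 2 libraries. The 2 libraries were the lowest pair for 15 of the 39 (38.5%), beside 19.4% of all tested genes, and the highest pair for 10.3%, beside 27.3%. All 15 ovary and oocyte markers found were detected, and their summed CPM was 46.6 to 141 in FM, 166 to 3640 in SBM and 247 to 3850 in D3. Their part in these values was not tested.

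Other lysosomal genes were described from lists. Of 52 other lysosomal hydrolases tested, 28 lay below FM in every D3 library and 3 above (backgrounds 13.6% and 12.8%), with a median log2 fold change of −0.62. In SBM against FM their median was −0.32, with 9 below and 1 above (backgrounds 10.3% and 9.56%). In D3 against SBM it was −0.24, with 0 below and 2 above (backgrounds 2.56% and 2%). The fucosidase gene fuca1.2 was at 177 ± 23.8 CPM (SD, n = 3) in FM and 80.8 ± 9.49 in D3, the α-mannosidase gene man2b1 at 895 ± 117 CPM (SD, n = 3) in FM and 439.9 ± 46.7 in D3 and fuca1.1 at 426 ± 53.9 CPM (SD, n = 3) in FM and 209.6 ± 30.4 in D3, each with an edgeR adjusted p of 0.32. With library size scaling the medians of the hydrolases came to −0.05 (SBM relative to FM), −0.26 (D3 relative to SBM) and −0.35 (D3 relative to FM). That scaling also raised the median of all genes in both comparisons against FM, as given above. Medians of the lists relative to all genes are not given here.

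Lysosomal membrane and transport proteins, 35 tested, had a median of −0.28 in D3 against FM, with 13 below and 0 above (backgrounds 13.6% and 12.8%). With library size scaling the median was −0.02 and 20 of 35 were lower. Under that scaling the median of all genes rose too, in D3 against FM and in SBM against FM. The amino acid transporter gene slc36a1 was at 40.7 ± 6.57 CPM (SD, n = 3) in FM and 19.7 ± 4.01 in D3, and the cystine exporter gene ctns at 56.4 ± 5.18 CPM (SD, n = 3) in FM and 27.3 ± 2.82 in D3. In SBM against FM the median was −0.18, which library size scaling turned to 0.09. A mixed list of 23 tested genes held sorting receptors, enzymes of the mannose 6-phosphate tag, progranulins, MiT transcription factors and subunits of the Ragulator and Rag complexes with flcn. It had a median of −0.06 for SBM relative to FM, −0.13 for D3 relative to SBM and −0.30 for D3 relative to FM; with library size scaling the first turned to 0.21 and the last was −0.03. In that list tfeb, the transcription factor that drives lysosomal genes in mammals, was at 55.6 ± 18.8 CPM (SD, n = 3) in FM and 33.4 ± 11.4 in D3, with overlap and an edgeR adjusted p of 0.36. The mannose 6-phosphate receptor gene igf2r was at 67.7 ± 7.29 CPM (SD, n = 3) in FM and 49.0 ± 4.59 in D3.

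Pump partners outside the name pattern, 15 tested, had medians of 0.06 in SBM against FM and −0.25 in D3 against FM. Library size scaling turned the second to 0.02, while it raised the median of all genes in that comparison as well. In that list tmem9b was at 97.6 ± 6.13 CPM (SD, n = 3) in FM and 63.2 ± 15.1 in D3. Cystatins, a family with inhibitors of cysteine cathepsins, were listed together with related plasma proteins that need not inhibit them. The list had 9 members tested and medians of 0.33 and 0.69 in the same 2 comparisons. Fetuin genes of the plasma are among them: fetub was at 167 ± 163 CPM (SD, n = 3) in FM and 1047 ± 863 in D3. The summed level of the list was 6747, 3088 and 2435 CPM in the 3 libraries high in hepatocyte markers and 479 to 1053 CPM in the other 6; the part of hepatocytes in it was not tested. The cystatin C gene cst3 was at 288 ± 9.11 CPM (SD, n = 3) in FM and 205 ± 57.4 in D3, and each D3 library lay below FM. None of the listed genes was called by edgeR in any comparison.

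Markers of lysosome-rich and ileal enterocytes were also lower in D3 than in FM. Over 9 genes their summed level was 11451 to 13213 CPM in FM, 5604 to 11710 in SBM and 4845 to 7157 in D3. For 8 of the 9 every D3 library lay below every FM library, against a background of 13.6% of all genes. The exception was lrp2a, which was at 0.129 to 8.49 CPM. The bile acid carrier gene fabp6 was the most abundant, at 6841 to 7744 CPM in FM and 2833 to 3976 in D3, and the protein uptake receptor gene cubn was at 1415 to 2079 and 713 to 1088. SBM library 1 lay in the D3 range for both genes, at 3043 and 920 CPM. Absorptive enterocyte markers were lower as well. Their median log2 fold change was −0.66 in D3 against FM, with 9 of 10 lower (background 47.6%). In SBM against FM it was −0.84, with 10 of 10 lower (background 50.5%). The lysosome-rich list had medians of −0.94 and −0.39. The lowest sum of the absorptive markers was that of SBM library 3 at 10146 CPM, the SBM library with the highest cathepsin and pump sums. The part of either cell type in the members' values was not tested.

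Ratios within a library do not depend on the scaling, and they were added after the levels were seen. Summed cathepsins over these summed markers stood at 1.82, 1.503 and 1.89 for the FM libraries, 1.54, 1.69 and 2.02 for those of SBM and 2.21, 1.99 and 2.11 for those of D3. The pump sum over the same markers was 0.261, 0.179 and 0.218 for the FM libraries, 0.286, 0.236 and 0.248 for those of SBM and 0.348, 0.301 and 0.305 for those of D3. On both ratios each D3 library was above each FM library. The sums themselves were lower in each D3 library than in any FM library, for the pump by little (2151 CPM in D3 library 2 against 2158 in FM library 2). Such a ratio rises for any genes that fall less than the marker sum. The other lysosomal hydrolases over the same markers overlapped, at 1.26 to 1.54 in FM and 1.41 to 1.75 in D3. The share of all genes with ratios apart in this way is not given here. Set against cubn alone, cathepsins were at 11.3 to 14.7 in FM and 13.1 to 15.0 in D3, and the pump at 1.35 to 2.11 and 1.96 to 2.36, with overlap in both. The gene fabp6 made up most of the marker sum in every library, so ratios over the sum and over fabp6 are not independent. Set against fabp6, cathepsins were at 2.48 to 3.23 in FM and 3.59 to 3.85 in D3, without overlap. The pump was at 0.296 to 0.437 in FM and 0.541 to 0.595 in D3, also without overlap. Among single cathepsins over the marker sum, ctsl.1 was at 0.831 to 1.09 in FM and 1.13 to 1.21 in D3, while ctsh, ctsz, ctsbb, ctsa and ctsd overlapped between FM and D3.

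**Figure D5:**
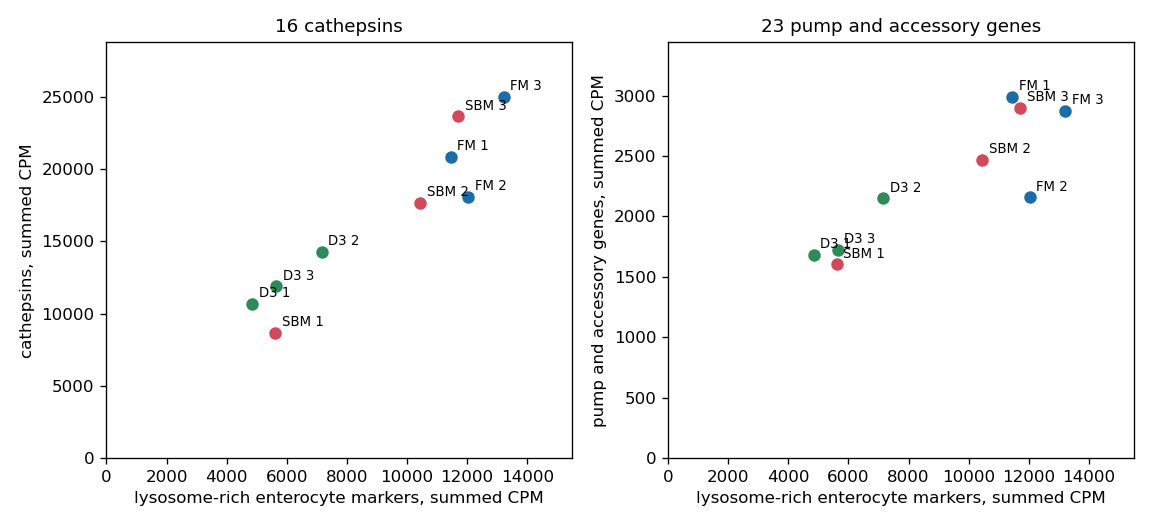
Summed CPM of the 16 tested cathepsins (left) and of the 23 tested pump and accessory genes (right) against the summed CPM of 9 lysosome-rich and ileal enterocyte markers, 1 point per library, coloured by group and named. D3 libraries and SBM library 1 lie at 4845 to 7157 CPM on the marker axis, and the other 5 libraries at 10449 to 13213.

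Other cell types that express these genes were examined by their markers. The summed level of 10 macrophage markers was 310 to 321 CPM in FM, 195 to 265 in SBM and 172 to 375 in D3. Neutrophil markers, 6 tested, had a median log2 fold change of 0.81 in D3 against FM and 0.20 in SBM against FM. In each D3 library lyz, mmp9 and npsn lay above FM (background 12.8%), and cpa5 below (background 13.6%). The first 3 reached at most 22.7 CPM, while cpa5 was at 6297 to 9476 CPM in FM and 3617 to 5503 in D3. Like the exocrine pancreas sum given below, cpa5 was highest in FM library 1 and lowest in D3 library 2. The pancreas carboxypeptidase gene cpa1 was at 3088 to 4326 CPM in FM. Whether cpa5 marks neutrophils in these libraries was not tested. The markers mpx and mmp13a overlapped between D3 and FM. Of 9 ionocyte markers, foxi3a, foxi3b, ca15a, slc4a1b, rhcgb, trpv6 and slc12a10.2 were at or below 0.431 CPM in every library. The other 2 were expressed: the carbonic anhydrase gene ca2 was at 101 to 121 CPM in FM, 55.1 to 83.0 in SBM and 52.0 to 111 in D3. The sodium pump gene atp1a1a.5 was at 10.97 to 11.9 CPM in FM, below that in SBM (4.04 to 5.70) and in D3 (5.10 to 7.89). Exocrine pancreas genes summed to 143970 to 192477 CPM in FM, 87961 to 172960 in SBM and 70101 to 113125 in D3. The median log2 fold change of the 15 tested was −0.79 in D3 against FM. All 15 were lower (background 47.6%), and 12 lay below every FM library (background 13.6%). In SBM against FM the median was −0.48, with 15 lower (background 50.5%) and 3 below every FM library (background 10.3%). The gene acp5a, of the osteoclast and bone list, was at 11.8 to 17.6 CPM in FM and reached 292 in SBM library 1 and 270 in D3 library 3, beside 13.7 to 51.7 in the other SBM and D3 libraries. The osteoclast genes ocstamp, dcstamp and calcr did not follow it, at 0.194, 0.653 and 0.194 CPM in SBM library 1 and 0.671, 0.384 and 0.455 in D3 library 3. In the same list, bglap was also highest in these 2 libraries, at 1.40 and 1.34 CPM beside 0 to 0.775 in the others. The bone gene sp7 was at 0.290 and 0.671 CPM there, and highest in SBM library 2 at 1.18. The part of these cells in the members' values was not tested.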

How the data were processed

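Total RNA of zebrafish intestine was made into libraries with a SMARTer mRNA kit, per the labels' protocols. The authors deposited raw counts per gene and FPKM values for 9 libraries, 3 in each of 3 groups. Aligner, counter, strand setting and genome build were not given in the sources used here. The deposited FPKM equal the counts divided by 1 length per gene and the library total, within 0.000141%, and were used only to compare levels between genes.

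The counts were tested with edgeR 4.0.16 (R 4.3.3): filterByExpr with a minimum count of 10 (7533 genes left out), TMM scaling, 1 quasi-likelihood fit over all 9 libraries with 6 residual degrees of freedom, and Benjamini-Hochberg adjustment over 19450 genes, called at 0.05. The steps were tested on simulated data. CPM are TMM-scaled. SEs are the size of the log2 fold change divided by the square root of F. The biological coefficient of variation was 50.5%. Alternatives were library size and RLE scaling, DESeq2 1.42.0, limma-voom (limma 3.58.1), no filter, a replicate block, each library left out, and libraries high in oocyte or hepatocyte markers left out.

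Values in every library are given for the 5 cathepsin and 5 pump genes with the highest mean FPKM and, in each comparison, for up to 6 of each class with the smallest p; some of these are given by range. Other genes are given by range; ctss2.2 is given in full, a choice made after its values were seen. Recomputing the counts by class and the 2 counts of lower genes in D3 against FM under each alternative was likewise added after seeing the data. Up to 3 genes per list were named by p. Members and lists were chosen with earlier results of these data known. All 43 names match RefSeq symbols. Gene order is from the RefSeq annotation of GRCz12tu.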

Additional observations from a re-analysis of the deposited data

How the results depend on the processing

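Over 1118 recomputed values, 1089 kept their direction, their side of the threshold or their size. That total counts each value alike and includes members that were called in no main comparison. It therefore does not measure how firm the results are. With library size scaling, atp6v0d1 in SBM against FM reversed to 0.018, the D3 against FM medians were −0.42 for cathepsins and −0.23 for pump genes, 5 pump genes had lower values in SBM against FM, 2 members were lower in D3 against FM at an unadjusted p under 0.05 (2.88% of all genes), and 11 lay below every FM library (5.91%). Relative to the median of all genes, the D3 against FM medians under that scaling were −0.72 for cathepsins and −0.53 for pump genes. With TMM factors they were −0.73 and −0.54. DESeq2 called 238, 5 and 918 of all genes in SBM against FM, D3 against SBM and D3 against FM, where edgeR called 0. Leaving out 1 library gave 10 to 20 pump genes with lower values in SBM against FM. Relative to the median of all genes, the pump median there ran from −0.37 to 0.04. In D3 against FM, leaving out 1 library gave 2 to 21 members lower at an unadjusted p under 0.05, beside 4.17 to 8.6% of all genes. Without the 2 libraries highest in oocyte genes, 8 pump genes had lower values in SBM against FM. Without the 3 highest in hepatocyte genes, which leaves D3 with 1 library assumed to vary like the others, D3 against FM had 1 member called (ctss2.1 at 2.55) among 2053 genes, a cathepsin median of −0.99 and 3 members lower at an unadjusted p under 0.05 (12.2% of all genes). That fit tested 21008 genes, and its lone D3 library was D3 library 3, 1 of the 2 highest in oocyte genes. Gene ctss2.1 was at 344 CPM there, beside 66.3 and 76.7 in D3 libraries 1 and 2. Its call thus rests on 1 library, and a spread within D3 could not be estimated. No conclusion on members is drawn from the counts of that fit. Apart from the fits with fewer libraries, the cause of the shifts between settings was not tested.

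Whether replicate numbers pair the libraries is not settled by these values. The check compared libraries of different groups by a correlation that is another quantity than the Spearman rho given above. In this check, correlations of same-numbered libraries ran from −0.58 to 0.52, and 6 of 9 libraries correlated best with their own number. The highest correlation of the check, 0.71, was between SBM library 1 and D3 library 3, whose Spearman rho was 0.975. With a replicate block, 0 members were called and 5 members were lower at an unadjusted p under 0.05 in D3 against FM (5.72% of all genes). The 3 libraries per group had a biological coefficient of variation of 50.5%, and the thinnest tested members, ctsll and atp6ap1lb, had 140 and 147 counts over all 9; the effect of depth was not tested.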
